A study of Mus musculus with 8 samples.

Results

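The block examined here is a stretch of mouse chromosome 2 from 118.5 to 121.0 Mb on the mm9 genome build, chosen by the strain difference itself, because probes that differ between BTBR and B6 mice lie close together in it. Its members are the array probes, leaving out control probes, whose smaller coordinate falls in that range and whose signal the scanner software called well above background for 3 or 4 mice of BTBR or of B6. Of 138 probes that the array carries there, 108 met the rule, among 28081 of 41174 probes on the whole array. One member, a Ubr1 probe, carried an outlier flag and was left out, so that 107 probes were tested, of 27982 over the array. The members carry 61 gene names, of 18449 names over all detected probes. The signal was well above background on all 8 arrays for 95 of the 107 tested probes, while 3 members entered through the BTBR arrays alone, 1 through the B6 arrays alone and 103 through both strains. Because members were selected for their strain differences, these differences and the calls made on them are given below as a description, and neither is a test of the block. The other 30 probes lay below the detection rule.

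Hippocampal RNA came from 4 BTBR T+ Itpr3tf/J (BTBR) mice, an inbred strain used as a model of autism, and from 4 C57BL/6J (B6) controls. All were labeled male, 5 months old and untreated, and whole hippocampus was taken. Both strains had been bought from one supplier and bred in one vivarium. In the labels the entry for background strain reads C57BL/6J for both groups, so the BTBR group rests on title, source and genotype. BTBR mice differ from B6 at many loci besides the Itpr3tf allele they are named for, so the comparison is one of inbred strains and not of a single mutation. Each mouse was hybridized to 1 single-color Cy3 array, and replicates 1 and 2 of both strains shared slide 1 while replicates 3 and 4 shared slide 2. Values are normalized log2 intensities, and a difference is BTBR minus B6 on that scale. In bulk tissue, fewer cells of a type and less RNA per cell cannot be told apart.

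Inbred strains inherit chromosomes as long stretches of shared or distinct ancestry, so that neighboring genes often differ between strains together in sequence. A sequence difference can alter how much of a transcript is made, and it can also lie under the probe that measures it, in which case less labeled RNA binds at the same expression. The genes here belong to many pathways. They include lysosomal tethering subunits, cytosolic phospholipases, neuronal and germline genes and parts of the transcription machinery. Whether strain variants lie under these probes was not tested, since no BTBR sequence was at hand.

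The probes that the results turn on are printed 5′ to 3′ as the array carries them, with mm9 coordinates and the strand of the transcript. The first is the whole probe of the noncoding transcript 5430417L22Rik, which had the largest difference in the block. For the other genes the 30 bases at the 5′ end of the probe are given. Disp2 is shown beside a probe without a gene name on the opposite strand. Mga, Vps39 and Zfp106 are each shown with a probe whose difference was 1 or more in size and a probe whose difference was below 0.1. The last pair, in capitals, is 30 of the 42 bases that probes of Zfp106 and Capn3 hold in common on opposite strands.
5430417L22Rik, chr2:118574195-118574254, plus strand: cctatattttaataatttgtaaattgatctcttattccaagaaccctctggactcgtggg
Disp2, chr2:118620534-118620563, plus strand: gccagaggacacttttgttttattttgttg
A_51_P284741, chr2:118620495-118620524, minus strand: gccttgccttagattgtttggcactggaaa
Exd1, chr2:119345235-119345264, minus strand: caggtgatgtcactgtagagggtatttgct
Mga, difference 1.27, chr2:119790552-119790581, plus strand: atagctgccaaagttgggtcaattggacac
Mga, difference 0.05, chr2:119773937-119773966, plus strand: gaggatgaggaagatgagaaaactgatgat
Vps39, difference 1.14, chr2:120142671-120142700, minus strand: agtaatgcaggagcagctctgttgagtatg
Vps39, difference 0.09, chr2:120146487-120146516, minus strand: aaccttctgccagcaaacactcagatcaat
Zfp106, difference -1.19, chr2:120335604-120335633, minus strand: ctctagagcctgtaagtgacatttaagcag
Zfp106, difference 0.00, chr2:120359369-120359398, minus strand: agtggccatagaaagaatgaaacagaaaag
Zfp106, 30 of the shared bases, chr2:120333091-120333120, minus strand: CAGTAAGTAGGTTTGCTTAAGTTCACATAC
Capn3, 30 of the shared bases, chr2:120333091-120333120, plus strand: GTATGTGAACTTAAGCAAACCTACTTACTG

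The arrays themselves set the frame for these values. Between 56.8% and 71.9% of probes were well above background on an array, with the lowest share on B6 replicate 1, and no member was saturated. Markers of hippocampal neurons were measured for 10 of 10 listed genes, each well above background on all 8 arrays, and their summed level ranged from 16.20 to 16.70 in B6 and from 16.02 to 16.90 in BTBR. Such a sum is carried by the brightest genes, and the median difference over the 10 genes was -0.63. C1ql2, a marker of dentate granule cells, had -1.87 ± 0.49 (limma adjusted p = 0.0542), and Wfs1, a marker of CA1, had 0.71 ± 0.22. With limma 0 of the 10 genes were called and 3 had an unadjusted p under 0.05. Nothing is read from the latter count, since no share over all probes stands beside it. Whether cell composition had a part in the differences of the block was not tested. The 7 thalamic markers summed to between 13.50 and 13.88 in B6 and to 16.53, 14.35, 13.72 and 13.70 in BTBR replicates 1 to 4, so that BTBR replicate 1 stood apart. The 6 measured choroid plexus markers summed to between 13.84 and 15.17 in B6. In BTBR replicates 1 to 4 they summed to 15.93, 15.87, 14.24 and 13.92, so that replicates 1 and 2 lay above all B6 arrays. Pituitary markers, 5 of 5 measured, ranged from 11.42 to 14.18 in B6 and from 12.67 to 14.67 in BTBR. The 3 measured blood markers ranged from 15.24 to 16.22 in B6 and from 15.65 to 17.60 in BTBR. Leaving out BTBR replicate 1 left 11 block probes called higher and 15 called lower, in place of the 18 and 18 described next, and 1752 calls in place of 2129 over the array. Without that array the 10 largest differences of the block lay between -2.75 and 1.49, with unchanged signs. Without BTBR replicate 2 instead, 30 block probes and 1776 probes over the array were called. Whether neighboring tissue had a part in the strain differences was not tested.

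Strain differences in the block ran in both directions and were mixed along its length. A probe is said to be called where limma, fitted over all 27982 tested probes, gave a Benjamini-Hochberg adjusted p under 0.05. Of the 107 block probes, 36 were called (33.6%), against 7.61% of all tested probes. Higher in BTBR were 18 of them, where the share over the array was 3.31%, and 18 were lower, where it was 4.3%. The count of higher probes was 11 without B6 replicate 2, 11 without B6 replicate 3, 10 without B6 replicate 4 and 11 without BTBR replicate 1. With each array left out in turn, 5.48% to 7.8% of all tested probes and 22.4% to 33.6% of block probes were called. Calls over the array thus fell as well, except without BTBR replicate 3, where they rose from 2129 to 2183. Arrays of the 2 strains did not overlap at 49 block probes, 26 higher and 23 lower in BTBR, against 14.2% of all tested probes. These shares describe how the block was chosen and support nothing beyond it. The median difference in the block was 0.00 and the median size 0.24, where over the array the median difference was 0.01 and the median size 0.10. At 10 block probes (9.35%) the size was 1 or more, as it was at 1.65% of all tested probes. The called probes belong to 32 gene names, of which 16 were higher and 16 lower in BTBR and 0 had calls in both directions.

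**Figure D1:**
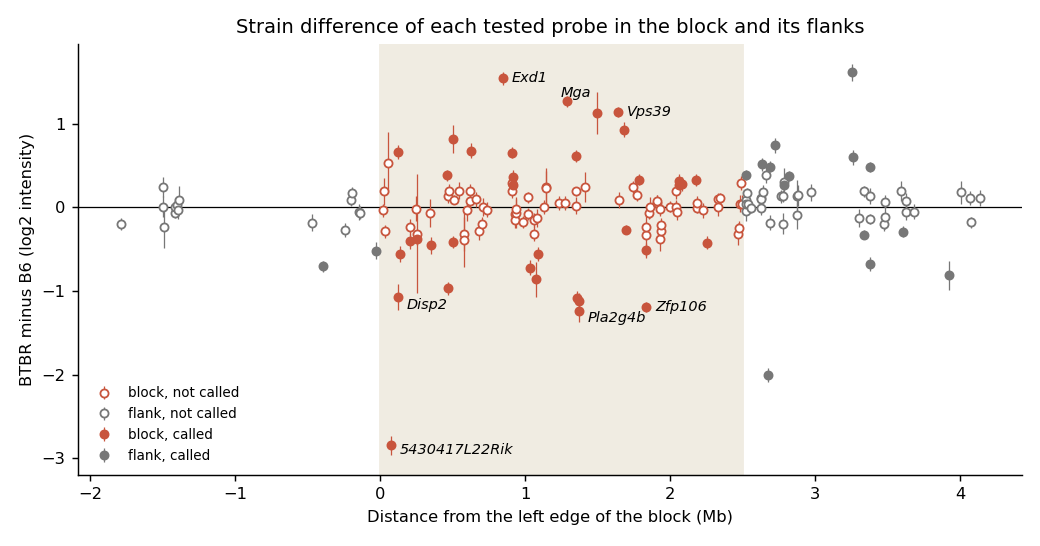
Strain difference (BTBR minus B6, log2 intensity) of each tested probe against its distance from the left edge of the block in Mb. The shaded area is the block, bars are standard errors, and filled points are called. Inside the block 56 of 107 differences lie above 0, and 5430417L22Rik at -2.85 lies farthest from it.

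In windows of 0.5 Mb, the first from the left edge held 11 called probes of 21 tested, 3 higher and 8 lower in BTBR. The next held 5 of 24, all higher. The third held 9 of 22, with 3 higher and 6 lower, the fourth 6 of 20, with 3 in each direction, and the last 5 of 20, with 4 higher and 1 lower. Calls did not stop at the edges. To the right, between 121.0 and 123.5 Mb, 14 of 49 tested probes were called (28.6%), with 2 of a size of 1 or more, and to the left, between 116.0 and 118.5 Mb, 2 of 17 were (11.8%). On the rest of chromosome 2 it was 104 of 2074 (5.01%). Just inside the left edge, Pak6, a p21-activated kinase, had a difference of -0.03 and Ankrd63 one of 0.19, or 0.03 without BTBR replicate 2, while just outside it the nearest Bmf probe had -0.06. Bub1b, a spindle checkpoint kinase and the probe next to the left edge, was not well above background on any BTBR array and was so on 3 B6 arrays, and it was at least 1.33-fold lower in BTBR. It is 1 of the 2 called probes on that side, and it entered through B6 alone, so that the detection rule favors its direction. Just inside the right edge AK015009 had 0.30 and Zscan29 0.04, and just outside it the nearest Tubgcp4 probe had 0.09 and the nearest Trp53bp1 probe -0.04, while the next Tubgcp4 probe had 0.38 and was called.

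**Figure D2:**
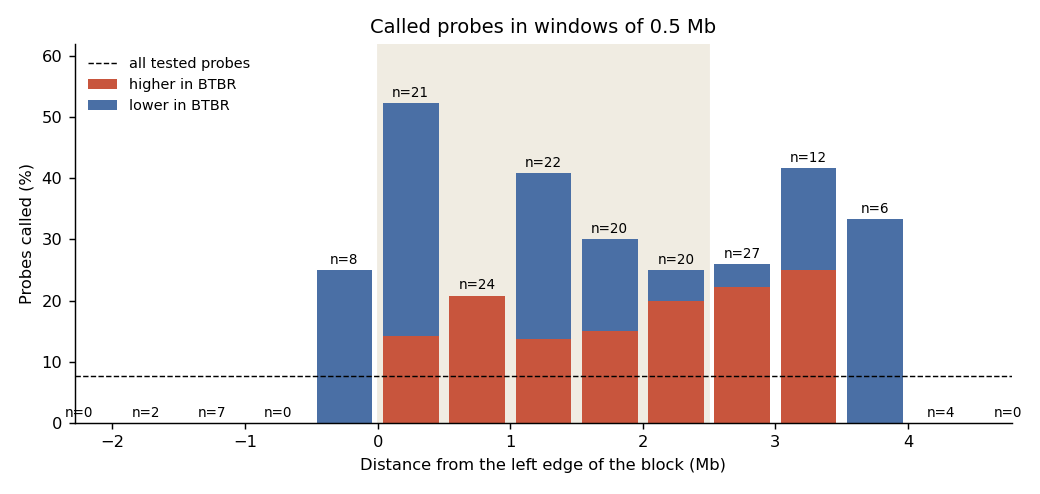
Share of tested probes that were called in each window of 0.5 Mb, against distance from the left edge of the block in Mb, split by direction, with the number of tested probes above each bar. The dashed line is the 7.61% of all tested probes, and the shaded area is the block. The first window in the block reaches 52.4%, and called probes continue for 1.5 Mb past the right edge.

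Outside the protein-coding genes, 5430417L22Rik, an annotated noncoding transcript, had the largest difference of the block. It read 13.03, 12.92, 13.10 and 13.17 on the B6 arrays and 9.91, 10.14, 10.39 and 10.39 on the BTBR arrays. The BTBR arrays lay far below the B6 arrays, by -2.85 ± 0.12 (SE, n = 4 mice per strain), which is 7.19-fold lower. Slide 1 alone gave -2.95 and slide 2 alone gave -2.74. Further probes without a protein-coding gene name were higher in BTBR by 0.66 (AK037161), 0.61 (ENSMUST00000141511), 0.33 (AV039307) and 0.27 (ENSMUST00000154193), and AK037375 was lower by a difference of -0.26. The 3 probes of 1700020I14Rik, a long noncoding RNA gene beside Oip5, differed by -0.15 to -0.06 and none was called.

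Among genes of cell signaling, 13 were measured and 4 had a called probe, 2 higher and 2 lower in BTBR, with 7 calls and a median of 0.12 over their 23 probes. Here and in the groups that follow, a gene with more probes has more chances of a call, and counts of calls stand against 7.61% of all probes with nothing read from them, since the block was chosen on them. Disp2, a member of the Dispatched family that releases hedgehog ligands, was lower in BTBR at both of its probes. The first read 14.57, 14.47, 14.56 and 14.78 in B6 and 13.66, 13.05, 13.58 and 13.81 in BTBR, a difference of -1.07 ± 0.16. At the second, the values were 9.65, 9.58, 9.54 and 9.62 in B6 and 9.16, 8.74, 9.08 and 9.17 in BTBR, a difference of -0.56 ± 0.10. The strains did not overlap at either probe, and BTBR replicate 2 was the lowest array at both. Itpka, the kinase that phosphorylates inositol trisphosphate and is concentrated in dendritic spines, read 17.34, 17.06, 17.21 and 17.34 in B6 and 15.80, 16.14, 16.77 and 16.80 in BTBR. Its BTBR arrays ranged over almost 1 log2 unit, with replicate 1, which had the highest thalamic marker sum, lowest, and the difference of -0.86 ± 0.21 became -0.67 without that array. The hippocampal neuron markers summed to 16.70, 16.20, 16.40 and 16.63 in B6 replicates 1 to 4. In BTBR replicates 1 to 4 they summed to 16.02, 16.10, 16.90 and 16.64. Whether thalamic tissue or neuron content had a part in the Itpka values was not tested. All 4 Chp1 probes, for a calcium-binding partner of sodium-proton exchangers, were higher in BTBR, by 0.19 to 0.37, and 2 were called. All 3 probes of Ttbk2, the tau tubulin kinase needed to start cilia, were higher by 0.28 to 0.32, with 2 called.

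No probe of the receptors and other signaling genes described next was called. Tyro3, a receptor tyrosine kinase of the TAM family, had differences of 0.00, 0.24 and 0.23, with standard errors up to 0.24. Dll4, a Notch ligand, had 0.10 ± 0.09, the receptor kinase Ltk -0.12 ± 0.11, and the small GTPase Rhov -0.03 ± 0.13. Plcb2, a phospholipase C, had -0.29 ± 0.08 at one probe, where the strains did not overlap, and 0.53 ± 0.36 at the other. The second value came from BTBR replicate 3 alone at 9.62, since the other BTBR arrays read 7.76 to 8.07 and the B6 arrays 7.62 to 7.95. Without that array the difference was 0.11, and with the processed signal and all arrays it was 1.48. This probe was well above background on 1 B6 and 3 BTBR arrays, so it entered through BTBR alone and the detection rule favors its direction.

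Genes of chromosomes, DNA repair and mitosis were measured for 8 symbols. A called probe was present for 3, all higher in BTBR, with 3 calls and a median of -0.01 over 13 probes. Exd1, an exonuclease-domain protein of the germline piRNA pathway, read 8.59, 8.66, 8.69 and 8.68 in B6 and 10.36, 10.13, 10.24 and 10.06 in BTBR. It was 2.92-fold higher in BTBR (1.54 ± 0.08), the largest difference upward in the block. Mga, a transcription factor that dimerizes with MAX, read 9.60, 9.53, 9.53 and 9.55 in B6 and 10.79, 10.81, 10.96 and 10.74 in BTBR at one probe. That difference was 1.27 ± 0.07, while its other probes had 0.05 and 0.05. Ino80, the ATPase of a chromatin remodeler, had 3 probes at -0.20 to 0.00, the centromere protein Oip5 had -0.02, the augmin subunit Haus2 -0.21 and Cdan1 -0.06, and none of these was called. A Bahd1 probe, for a heterochromatin protein, spread over 8.52 to 11.55 across the mice of both strains.

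**Figure D3:**
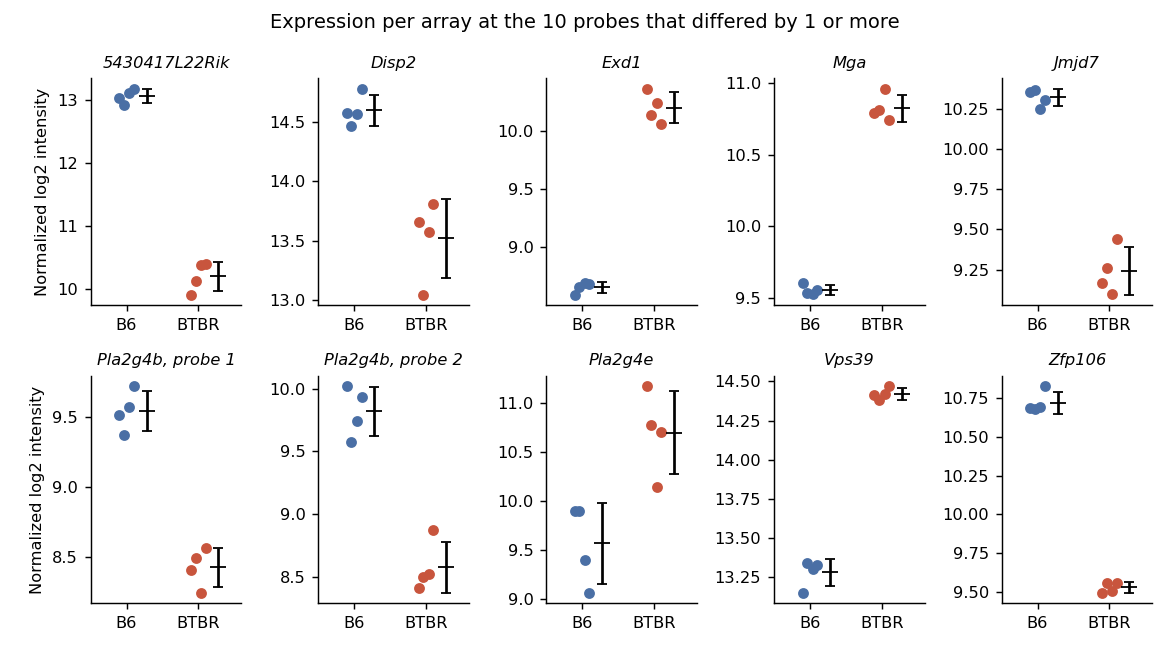
Normalized log2 intensity on each array for the 10 probes whose difference was 1 or more in size, with 4 B6 and 4 BTBR mice each. Points are arrays and the black mark is the mean with its SD; the vertical scale differs between panels and does not start at 0. The strains do not overlap in any panel.

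Membrane traffic was represented by 7 measured genes, of which 3 had a called probe, all higher in BTBR, with 3 calls and a median of 0.10 over 13 probes. Vps39 is a subunit of the HOPS complex, which tethers late endosomes to lysosomes. It read 13.15, 13.34, 13.30 and 13.33 in B6 and 14.41, 14.38, 14.42 and 14.47 in BTBR at one probe, a difference of 1.14 ± 0.06, and its other probe had 0.09 ± 0.09. The first probe separated the strains by far more than the spread between mice, and the second did not separate them. Vps18, shared by the HOPS and CORVET complexes, read 12.84, 13.09, 13.15 and 13.20 in B6 and 13.80, 13.81, 13.63 and 13.77 in BTBR at its called probe. That difference was 0.68 ± 0.09, beside 0.07 and 0.19 at its other probes, which were dimmer, with B6 means of 8.10 and 8.60. Tmem87a, a Golgi membrane protein, read 8.76, 8.74, 8.97 and 9.06 in B6 and 9.72, 9.75, 9.84 and 9.95 in BTBR (0.93 ± 0.09). Here too all BTBR arrays lay above all B6 arrays. The 3 probes of Snap23, a SNARE protein of exocytosis, had -0.02 to 0.07, and the endocytic protein Ehd4 had 0.24 ± 0.18.

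Enzymes of metabolism and mitochondria held 8 genes with a called probe of 11 measured, 3 higher and 5 lower in BTBR, with 9 calls and a median of -0.20 over 18 probes. Members of the cytosolic phospholipase A2 family, which release fatty acids from membrane lipids, differed in both directions. Pla2g4b was lower in BTBR at both probes. One read 10.02, 9.58, 9.74 and 9.94 in B6 and 8.41, 8.50, 8.52 and 8.87 in BTBR, a difference of -1.24 ± 0.13. The other read 9.52, 9.37, 9.57 and 9.72 in B6 and 8.40, 8.49, 8.24 and 8.57 in BTBR, a difference of -1.12 ± 0.10. Jmjd7, a JmjC-domain hydroxylase encoded just upstream on the same strand, read 10.36, 10.37, 10.25 and 10.30 in B6 and 9.17, 9.26, 9.10 and 9.44 in BTBR. Its difference of -1.08 ± 0.08 was close in size to those of Pla2g4b on this scale, and no array of one strain reached the other strain. With the processed signal, which adds no offset, the sizes lay further apart, at -1.38 for Jmjd7 and at -2.09 and -1.81 for Pla2g4b. Pla2g4e read 9.91, 9.91, 9.40 and 9.07 in B6 and 11.17, 10.78, 10.15 and 10.71 in BTBR, a difference of 1.13 ± 0.25. Its mice spread more than those of the other phospholipase, with an SD of 0.41 in B6 and 0.42 in BTBR.

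Gchfr, the feedback regulator of GTP cyclohydrolase in tetrahydrobiopterin synthesis, read 9.01, 9.71, 9.50 and 9.33 in B6 and 10.44, 10.38, 10.09 and 9.91 in BTBR, a difference of 0.82 ± 0.17. The gap between its strains was narrow, since B6 replicate 2 and BTBR replicate 4 lay next to each other. Rmdn3, which tethers mitochondria to the endoplasmic reticulum, read 10.60, 10.61, 10.61 and 10.59 in B6 and 9.71, 9.69, 9.43 and 9.72 in BTBR at one probe (-0.97 ± 0.08). Its other probes had 0.14 and 0.20, opposite in sign and not called. For the probe at 0.14 no B6 array was well above background and 3 BTBR arrays were, so it was at least 1.07-fold higher in BTBR, a direction that the detection rule favors, since the probe entered through BTBR alone. Ivd, the isovaleryl-CoA dehydrogenase of leucine breakdown, had -0.41 and -0.23, with the first called, and the dermatan sulfotransferase Chst14 had -0.37. Ganc, a glucosidase, was higher by 0.15 to 0.33 at its 3 probes, with 1 called. Not called were Ndufaf1, an assembly factor of respiratory complex I, at -0.17 ± 0.07, and Chac1, which degrades glutathione and is a target of ATF4, at -0.28 ± 0.10. The Adal probes, for an adenosine deaminase-like enzyme, had -0.24 and 0.04.

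Genes of RNA, transcription and protein turnover had 6 with a called probe of 9 measured, all lower in BTBR, with 6 calls and a median of -0.28 over 23 probes. Zfp106, an RNA-binding zinc finger protein, read 10.69, 10.68, 10.69 and 10.83 in B6 and 9.50, 9.56, 9.50 and 9.56 in BTBR at one probe, a difference of -1.19 ± 0.06. The other 3 probes of the gene had -0.23, -0.07 and 0.00. Rtf1, a transcription elongation factor that works with the PAF1 complex, read 14.37, 14.32, 14.32 and 14.41 in B6 and 13.50, 13.49, 13.83 and 13.72 in BTBR at its called probe. That difference was -0.72 ± 0.09, and its other 4 probes ranged from -0.31 to 0.12. The Rtf1 probe at 0.12 was well above background on 2 B6 and 3 BTBR arrays. It entered through BTBR alone, so the detection rule favors its direction. Rpap1, which binds RNA polymerase II, read 12.12, 12.07, 12.00 and 12.11 in B6 and 11.58, 11.54, 11.31 and 11.64 in BTBR (-0.56 ± 0.08). The strains stayed apart at the called probe of each of these genes. Capn3, a calpain known from muscle, had -0.51 and -0.32, the cochaperone Dnajc17 -0.41 and 0.10, and Ubr1, a ubiquitin ligase of the N-degron pathway, -0.42 at its called probe and -0.03 to 0.05 at its other 3 tested probes. The Ubr1 probe left out for its flag was well above background on all 8 arrays and had 0.58, opposite in sign to the called one. Probes of Spint1, a protease inhibitor, and Lrrc57 had differences between -0.39 and -0.28 and none was called. Outside these lists, Ccdc32 had a probe that was not well above background on any BTBR array and was so on 3 B6 arrays, and it was at least 1.37-fold lower in BTBR. It entered through B6 alone, so the detection rule favors that direction. Its other probe had -0.06 ± 0.17.

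Probes of one gene often gave unlike differences. Of 28 genes with at least 2 tested probes, 16 had a call. All tested probes were called in 2 of them, Disp2 and Pla2g4b, and in the other 14 only some were. The differences within a gene lay 1 or more apart in 4 genes, Rmdn3, Mga, Vps39 and Zfp106. In each of these a single probe carried the difference and the others stayed between -0.23 and 0.20. At Chp1 and Ttbk2, by contrast, all probes had the same sign and lay within 0.20 of each other. No gene had 2 probes of opposite sign that were each 0.5 or more in size. Some of the other probes in the 4 genes were dim, where differences are compressed. Their B6 means were 7.82 and 8.90 for Rmdn3, 8.26 for Mga, and 8.87 and 9.20 for Zfp106. Brighter ones had 10.17 for Mga, 9.95 for Vps39 and 13.75 for Zfp106. Whether the unlike probes read different transcript ends, carry strain variants or differ through their brightness was not tested.

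**Figure D4:**
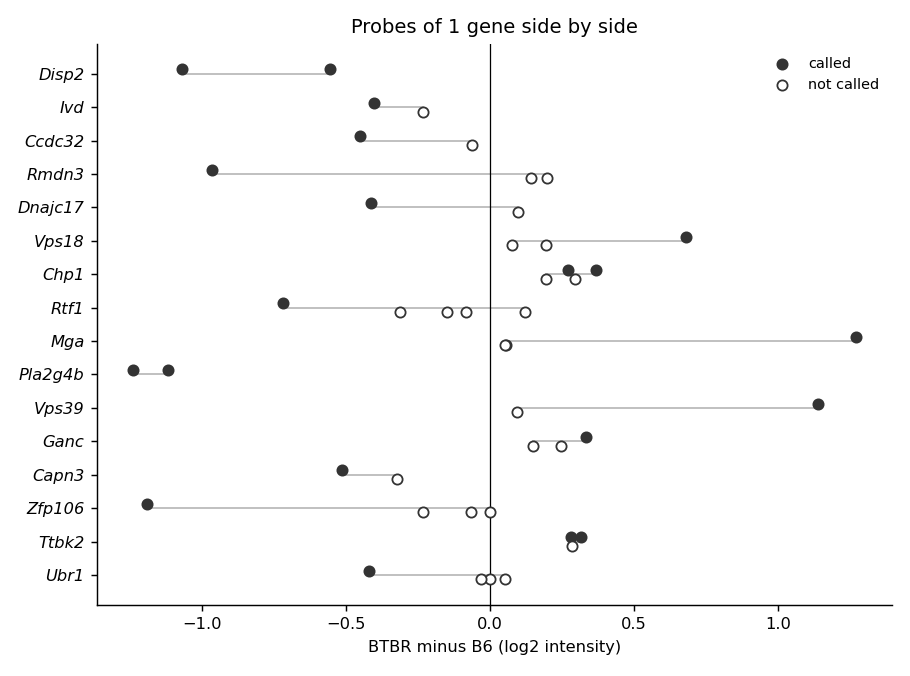
Strain difference (BTBR minus B6, log2 intensity) of each tested probe of the 16 genes that had at least 2 tested probes and at least 1 call, ordered along the block from top to bottom. Filled points are called, open points are not, and the gray line spans the probes of a gene. Rmdn3, Mga, Vps39 and Zfp106 each have 1 probe far from the rest.

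Where probes of opposite strands lie close together, their differences could be set side by side. The probe A_51_P284741 on the minus strand, whose sequence is given above, lies beside the Disp2 probe on the plus strand, with smaller coordinates 69 bases apart. It read 10.97, 11.15, 11.20 and 11.28 in B6 and 11.67, 11.82, 11.89 and 11.88 in BTBR, a difference of 0.66 ± 0.08 beside -1.07 for Disp2. One strand was higher and the other lower in BTBR, with no overlap between strains at either. Gchfr and Dnajc17, whose probes have smaller coordinates 320 bases apart, likewise had 0.82 and -0.41. The probes of Zfp106 and Capn3 that share 42 bases on opposite strands were both lower in BTBR, at -0.23 and -0.51. Itpka and Ltk, 646 bases apart, had -0.86 and -0.12. Probes of the same strand also overlapped for Chp1, by 42 bases, and for Snap23, by 32, so these pairs are not independent readings.

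Other features of the probes are given for called and uncalled members. The median GC content was 40% at the 36 called and 43.3% at the 71 uncalled probes, where it was 41.7% over all tested probes. Of the called probes 21 lay on the plus and 15 on the minus strand, and of the uncalled ones 43 and 28. The signal was well above background on all 8 arrays at 34 of 36 called and 61 of 71 uncalled probes. The median SD in BTBR was 0.10 at called and 0.14 at uncalled probes, where a smaller spread makes a call easier. The spread between mice was of the same order in the block and over the array, with a median SD of 0.10 in B6 and 0.13 in BTBR in the block and 0.11 and 0.14 over the array. Called differences had sizes of 0.26 to 2.85 and uncalled ones of 0.00 to 0.53, so that the ranges overlap.

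The strain differences were also compared between slide 1, with replicates 1 and 2, and slide 2, with replicates 3 and 4. All 36 called block probes had the same sign on both, but so had 2129 of 2129 called probes over the array. The calls rest on the same 8 arrays, and nothing is read from this count. In the limma fit with a strain by slide term, 0 block probes passed (0% of all tested probes were called), and 12 of 107 (11.2%) had an unadjusted p under 0.05, as did 9.93% of all probes. Itpka was among the latter, with -1.23 on slide 1 and -0.50 on slide 2 and an adjusted p of 0.433 for the term. Between the slides themselves, with strain in the fit, 0 block probes were called (0% over the array), and 16 (15.0%) had an unadjusted p under 0.05, as did 14.2% of all probes.

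**Figure D5:**
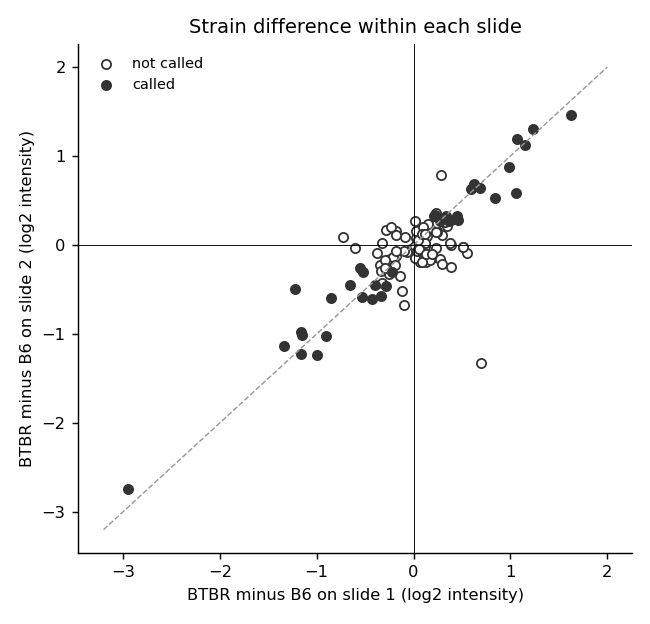
Strain difference (BTBR minus B6, log2 intensity) on slide 2 against that on slide 1 for the 107 tested probes of the block, 2 mice per strain on each slide. Filled points are called, and the dashed line marks equal differences. The calls rest on the same arrays, so their equal signs are no separate evidence, and the open point at 0.70 and -1.32 is a Bahd1 probe.

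Several block genes code for parts of larger complexes or pathways, and the partners that lie elsewhere in the genome were tested with limma over all probes. In 73 measured partner genes with 128 probes, 6 genes had 1 called probe each. That is 4.69% of the partner probes, below the 7.61% of all tested probes, so the calls are described one by one and nothing is read from their number. Leaving out B6 replicate 3 reduced this to 3 genes, and so did leaving out B6 replicate 4. The PAF1 complex, which Rtf1 works with, had 1 called gene of 5. This was Leo1, on chromosome 9, which read 9.00, 9.09, 8.83 and 8.96 in B6 and 7.53, 7.58, 7.70 and 7.62 in BTBR. No BTBR array was well above background, so that it was at least 2.36-fold lower in BTBR on the scale used here (limma adjusted p = 5.18e-06, lower in 4 of 4 BTBR mice). The probe entered through B6 alone, so the detection rule favors that direction, and without a filter on dim probes its adjusted p was 5.39e-06. The call held under all 17 alternatives tried, with adjusted p from 4.67e-06 to 0.000668, but the size varied. The measured difference of -1.36 became -4.86 with the processed signal and -0.84 in the deposited matrix. Other members, Paf1, Ctr9, Cdc73 and Wdr61, had differences between -0.16 and 0.01 and were not called.

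Among the gamma-tubulin ring and augmin proteins, which nucleate microtubules and include Haus2 of the block, 3 of 15 measured genes were called, with 3 calls over 19 probes, all higher in BTBR. Nedd1, an adaptor of the ring, read 7.79, 8.45, 8.06 and 8.14 in B6 and 8.79, 8.82, 8.55 and 8.74 in BTBR, a difference of 0.62 ± 0.13 (limma adjusted p = 0.0230). That call was lost in 6 of 17 alternatives, with adjusted p from 0.00662 to 0.0732, namely those without B6 replicate 3 or 4, those without BTBR replicate 1, 2 or 4, and the processed signal. The difference was 0.40 in the deposited matrix and 1.78 with the processed signal. Tubgcp5, a ring subunit, read 11.28, 11.19, 11.14 and 11.12 in B6 and 11.69, 11.56, 11.53 and 11.43 in BTBR, 0.37 ± 0.07 higher (limma adjusted p = 0.0142). It was not called without B6 replicate 3 (adjusted p = 0.0535) or without B6 replicate 4 (0.0507), nor with 1 median value per gene, which merges its probes and gave 0.23 (adjusted p = 0.0931). The lowest adjusted p over the alternatives was 0.00787. Tubgcp4, another ring subunit, lies just past the right edge of the block, and its called probe read 11.54, 11.45, 11.58 and 11.63 in B6 and 11.99, 11.93, 11.90 and 11.91 in BTBR, 0.38 ± 0.06 higher (limma adjusted p = 0.00485, from 0.00261 to 0.0935 over the alternatives). Its call too was lost with 1 median value per gene, where the difference was 0.23. In all 3 genes the 4 BTBR mice lay above the 4 B6 mice at the called probe, and both Tubgcp5 and Tubgcp4 had a second probe, at 0.10 and 0.09, that was not called.

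The HOPS and CORVET partners of Vps18 and Vps39 had 1 called gene of 8, Vps41, a subunit particular to HOPS, as Vps39 is. It read 14.30, 14.45, 14.37 and 14.36 in B6 and 14.19, 14.08, 13.98 and 14.14 in BTBR, a difference of -0.27 ± 0.07 (limma adjusted p = 0.0465, lower in 4 of 4 BTBR mice). This call was lost in 12 of 18 alternatives, with adjusted p from 0.0286 to 0.142, and leaving out any array other than BTBR replicate 1 ended it. Vps11, Vps16, Vps33a, Vps8, Tgfbrap1, Rab7 and Rab5a were not called. In the eIF2 kinase and ATF4 response, to which Chac1 belongs, 1 of 11 genes was called. This was Eif2ak2, the kinase activated by double-stranded RNA, which read 8.27, 8.65, 8.64 and 8.65 in B6 and 9.30, 9.36, 9.02 and 9.27 in BTBR, 0.69 ± 0.11 higher (limma adjusted p = 0.00506, from 0.00337 to 0.0244 over the alternatives). The difference was 0.51 in the deposited matrix and 1.20 with the processed signal. Its strains did not overlap. No limma call was made among 4 TAM receptor and ligand genes, 12 INO80 complex genes and 8 N-degron ligase genes. Of these, 0, 4 and 2 had a probe with an unadjusted p under 0.05, and nothing is read from these counts.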

How the data were processed

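Hippocampal RNA of 4 BTBR and 4 B6 mice was profiled, 1 mouse per array, and groups follow the labeled strain. The authors hybridized Cy3-labeled RNA to Agilent 4X44K arrays, and the deposited spot intensities, local background and flags are output of Feature Extraction, whose version is 10.7.3.1 in the headers and 9.1 in the submitters' processing notes. A deposited matrix holds log2 values that the authors background subtracted, quantile normalized and summarized per probe. It served as an alternative only. The methods name Agi4x44PreProcess, but not the signal column or offset.

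Here local background was subtracted from mean intensity with a floor of 0.5, 50 was added, log2 values were quantile normalized, and the median was taken over replicate spots of a probe. Control probes, 154 flagged probes and probes not well above background in 75% of the arrays of a strain were left out. Limma 3.58.1 in R 4.3.3 fitted strain over 27982 probes, with Benjamini-Hochberg adjusted p under 0.05 as a call; slide and the strain by slide product were fitted likewise. Python 3.11.15, pandas 2.3.3 and matplotlib 3.10.9 drew figures and extracted probe sequences. The fits were tested on simulated data. A probe dim on all arrays of a strain was set to the higher of its own value and the lowest value among probes well above background on that array, and its fold is given as a bound.

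Members, gene lists and tests were chosen with earlier results of these data known. Genes were named by a rule: block probes without overlap and a difference of 1 or more, the 3 largest and the smallest of each role list, probes at the edges, and called partners. Other members named in the text were picked with their values in view, and 1 member that the rule named, with the list of its partners, is counted but not reported here. The rank product of the study was not run, since it resamples probes. Replicate numbers were not taken to pair mice. Gene names and mm9 coordinates come from the array files; 96 of 107 tested probes matched a RefSeq symbol of GRCm38.p6. The sex and tissue of the mice are as labeled, and the smallest exact p for 4 against 4 arrays is 0.0286. The alternatives were the processed signal minus its 75th percentile, normexp, the deposited matrix, other filters, median centring, slide or replicate number as a block, each array left out, and 1 median value per gene. The study's own lists of changed genes, its qRT-PCR and the En2 mice were not used here.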

Additional observations from a re-analysis of the deposited data

Results flagged for a closer look

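In 5 of 62 groups of 4 arrays, at the named block probes and the called partner probes, the highest or lowest array stood apart from the others by Dixon's ratio. Chance alone flags about 1 in 20 groups. At the Zfp106 probe with the largest difference of that gene, B6 replicate 4 read 10.8258 while the other B6 arrays lay between 10.6812 and 10.6904. At a Plcb2 probe, BTBR replicate 3 read 9.61623, against 7.76333 to 8.06922 on the other BTBR arrays. For Ankrd63, at the left edge of the block, BTBR replicate 2 read 9.13507 and the other BTBR arrays 8.40748 to 8.51642. AK015009, at the right edge, had B6 replicate 2 at 8.39989 and the other B6 arrays at 8.53046 to 8.54383. Outside the block, Eif2ak2 had B6 replicate 1 at 8.2678 and the other B6 arrays at 8.6438 to 8.65024. The causes of these readings were not tested.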

How the results depend on the processing

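With 4 mice per strain, the number of arrays and the signal over background limit these values, and dim probes carry compressed differences. Leaving out each array in turn gave 10 to 17 block probes called higher in BTBR, 14 to 19 called lower, 50 to 56 whose strains did not overlap (16.9% to 19.8% of all tested probes, since fewer arrays overlap less often), and 3 to 7 partner genes with a call. With 1 median value per gene, 9 block genes were called lower and 29 did not overlap; fewer features are tested there, since probes of 1 gene are merged. Under the other alternatives these counts stayed within 1.5 times of those reported, and the strain by slide and slide fits made 0 block calls under each alternative run for them (not run with a slide or replicate block or with 1 value per gene).

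Same-numbered arrays correlated at -0.14, 0.51, -0.10 and 0.39, and differently numbered arrays at -0.50 to 0.37. These values do not settle whether replicate numbers pair the mice, and the main fit took them as unpaired. With the replicate block 12 block probes were called higher and 15 lower, and 5 partner genes were called. All 27 block calls of that fit were among the 36 reported, and 1650 probes were called over the array.

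Of 448 alternative values for the 25 block probes that the naming rule chose, 423 moved by less than 1 SD between mice and 25 by more, and no called difference changed sign. The processed signal, which adds no offset, gave -1.81 and -2.09 for Pla2g4b, 1.48 for Plcb2 and 0.68 for AK015009. Merging the probes of a gene gave 0.67 for Mga, 0.62 for Vps39, -0.63 for Zfp106, 0.19 for Vps18 and -0.15 for Rtf1. For Mga the median was the called probe in B6, at 9.55, and another probe in BTBR, at 10.23. Its merged value therefore compares 2 probes and is not a strain difference of either.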
